A study of Rattus norvegicus with 82 samples.

Results

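The rat genes Fabp3, Fabp5 and Fabp7, which encode 3 intracellular fatty acid binding proteins, were followed through 7 brain regions, 3 treatments and 2 times of day. Each gene was taken by its symbol in the platform annotation, which gave 1 probe set per gene and 3 of the 31042 probe sets tested, from 14217 named genes (Fabp3, 1367660_at, designed from NM_024162; Fabp5, 1370281_at, from U13253; Fabp7, 1370024_at, from NM_030832). The 3 genes were selected on measured values of these same arrays, namely the change from AM to PM within each treatment and the change with ADX at each time, so those changes are given below as a description with no test. The level in each region and the comparison of pADX with Sham played no part in the choice and were tested. That comparison uses the same Sham arrays as the ADX changes.

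The series measured total RNA of rat brain on 82 arrays, and 80 of these could be assigned to 41 groups. The regions were septum, hippocampus, hypothalamus, amygdala and frontal cortex in the forebrain, and locus coeruleus and dorsal raphe in the brainstem, and the treatments Sham, ADX and pADX, each sampled in the morning (AM) and in the afternoon or evening (PM). ADX commonly abbreviates adrenalectomy, in which the adrenal glands are taken out, and Sham an operation without it. The sources used here do not give the meaning of the p before ADX, nor the strain, the age, the hour of sampling or any hormone replacement. Groups held 2 arrays, but in the frontal cortex Sham AM and ADX AM had 1 each, and none labelled pADX AM came from the hippocampus. Both pADX arrays of the hippocampus carry a PM label, which their place in the series puts in doubt. The labels do not say whether arrays were separate animals or pools, so every p-value below measures only the spread between arrays, which may be technical.

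Fatty acid binding proteins are small cytosolic carriers that take up long-chain fatty acids and pass them to membranes, to enzymes and to nuclear receptors. Fabp7, the brain type, is made by radial glia during development and by astrocytes and neural progenitors in the adult, and prefers polyunsaturated fatty acids such as docosahexaenoic acid. Its messenger RNA is known to cycle over the day in mouse brain. Fabp3, the heart type, is found in adult neurons, and Fabp5, the epidermal type, in both neurons and glia.

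Because the results turn on Fabp7, the 250 bases before its start are shown, from RefSeq on GRCr8, chr20:37669356-37669605, plus strand, with the one motif found in capitals.
Fabp7 promoter: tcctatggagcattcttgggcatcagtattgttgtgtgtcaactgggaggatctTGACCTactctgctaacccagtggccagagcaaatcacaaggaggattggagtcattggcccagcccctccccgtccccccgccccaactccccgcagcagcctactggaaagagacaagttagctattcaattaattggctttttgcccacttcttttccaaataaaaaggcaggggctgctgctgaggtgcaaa

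The capitals mark AGGTCA, a hexamer bound by nuclear receptors of the REV-ERB and ROR type among others, which lies on the minus strand and therefore reads TGACCT here, starting at position -196 from the start of the gene. This hexamer was present on either strand in 14.1% of 33469 rat promoter windows of the same length. The E-box CACGTG (5.59% of windows), the glucocorticoid receptor hexamer AGAACA (17.5%), the RBPJ core TGGGAA (22.1%) and the TATA box TATAAA (12.9%) were searched on both strands and were not found in these 250 bases. None of these motifs overlapped another here. The Fabp3 window held none of the 5 motifs, and the RefSeq table gave no window for Fabp5. A match describes letters in this window and does not show a bound site.

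The deposited intensities were on more than 1 scale. Trimmed by 2% on either side, the mean was 150.04 to 150.05 on 45 arrays and ran from 34.1 to 171 on the other 37, and the median ran from 13.9 to 61.8. The values were therefore quantile normalized, raised to at least 16 where lower, and log2 transformed; on this scale, used for all levels below, the floor is 4. Markers of brain cells were present, with the neuronal Snap25 at a mean of 12.42 and the astrocytic Aqp4 at 11.26. Genes known for single regions mostly followed the region codes in the titles. Oxt was highest in hypothalamus (mean 10.95 against 6.14 in the next region) and Dbh in locus coeruleus (8.34 against 4.20). Slc6a4 was highest in dorsal raphe (10.66 against 9.61, the latter in locus coeruleus). Th was about as high in hypothalamus (8.77) as in locus coeruleus (8.74), and Pomc lay at the floor in all 12 hypothalamus arrays. No such gene was checked for septum, amygdala, hippocampus or frontal cortex. All 3 fatty acid binding proteins were above the floor on all 80 arrays. Fabp3 had a mean of 8.15, at the 86.2nd percentile of all probe sets, Fabp5 of 9.99 at the 97.3rd and Fabp7 of 9.80 at the 96.6th.

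Fabp7 was lower at PM than at AM in Sham, was not lower at PM in ADX, and lay between the Sham and ADX values at PM in pADX. Values of the 5 regions with all 12 arrays were averaged into 12 units, 1 for each treatment, time and replicate. In Sham the AM units were 10.02 and 9.98 and the PM units 9.42 and 9.42. In ADX the AM units were 9.996 and 10.03 and the PM units 10.10 and 10.09. In pADX the AM units were 9.94 and 9.81 and the PM units 9.67 and 9.86. The 2 Sham PM units were the lowest of the 12, and the 2 ADX PM units the highest, with no overlap between either pair and any other group.

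PM minus AM for Fabp7 was -0.58 (SE 0.07, n = 2 units per group) in Sham, a 1.49-fold lower level at PM, 0.08 (SE 0.07) in ADX and -0.11 (SE 0.07) in pADX. The SDs within the Sham groups were 0.030 at AM and 0.0015 at PM, and with 2 units each they are poorly known. In pADX the PM units overlapped the AM units. The daily difference in ADX exceeded that in Sham by 0.66 (SE 0.09), and that in pADX exceeded that in Sham by 0.47 (SE 0.09). Among all 31042 probe sets, limma's moderated test at an adjusted p of 0.05 called 0.0773% for PM minus AM in Sham, 0.029% in ADX and 0.00966% in pADX; these shares are background only, since the choice of genes used the same differences.

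**Figure D1:**
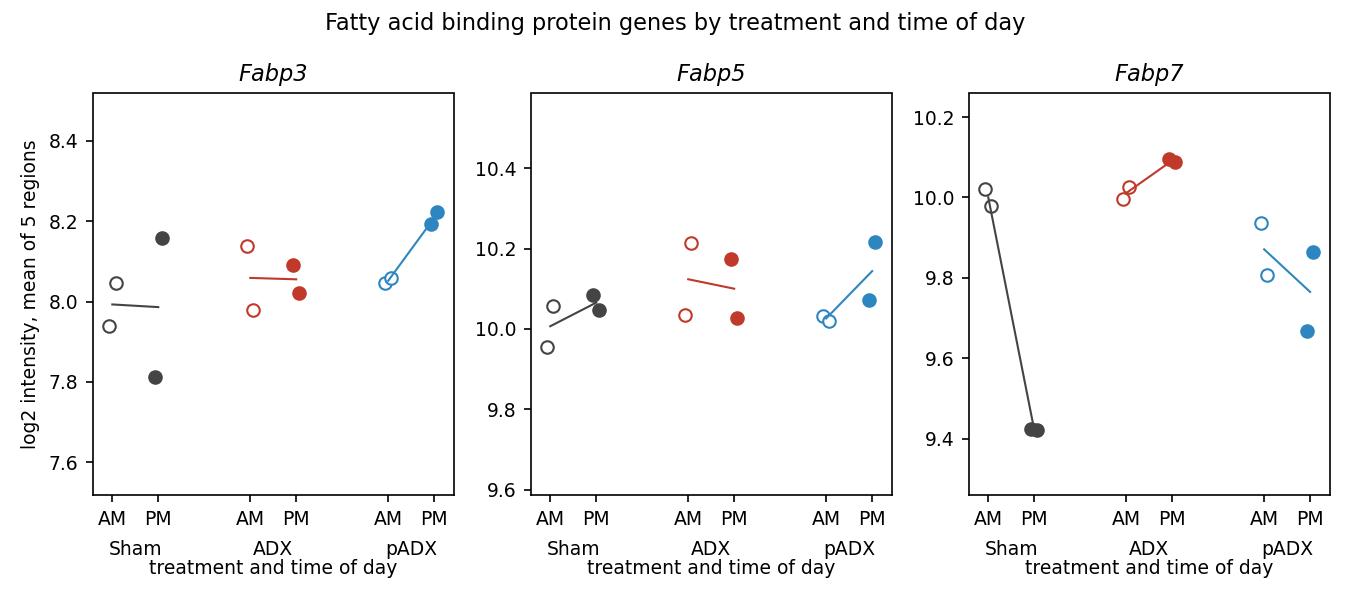
Level of Fabp3, Fabp5 and Fabp7 (y axis, log2 intensity, mean of 5 regions; each panel spans the same number of log2 units) by treatment and time of day (x axis); open points are AM units, filled points PM units, 1 point per replicate, and lines join the means of 2 units. Fabp7 goes from 10.02 and 9.98 to 9.42 and 9.42 in Sham, while both ADX PM units lie at 10.09 to 10.10.

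The lower Sham PM level of Fabp7 was seen in the mean of every region. In the septum the Sham arrays were 11.14 and 10.90 at AM and 10.05 and 10.23 at PM, a difference of -0.88 (SE 0.20) or 1.84-fold. In the amygdala they were 9.72 and 9.65 at AM and 9.21 and 8.81 at PM, a difference of -0.68 (SE 0.12). In the hypothalamus they were 10.08 and 10.08 at AM and 9.78 and 9.28 at PM, a difference of -0.55 (SE 0.18). These are the forebrain regions in which Fabp7 differed most between the times, and in each the PM arrays lay below both AM arrays.

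In the locus coeruleus the Sham arrays for Fabp7 were 10.03 and 9.86 at AM and 9.42 and 9.43 at PM, a difference of -0.52 (SE 0.14). In the hippocampus they were 10.32 and 10.32 at AM and 10.07 and 10.19 at PM, a difference of -0.19 (SE 0.07). Both regions again had no overlap between the times. In the dorsal raphe the arrays overlapped, at 9.15 and 9.40 at AM and 8.65 and 9.35 at PM, with a difference of -0.28 (SE 0.22). In the frontal cortex 1 Sham AM array at 8.40 stood against PM arrays at 8.48 and 7.90, and the difference was -0.21 (SE 0.28).

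Of 7 regions, 5 thus had no overlap between Sham AM and Sham PM and 2 overlapped. The share of all probe sets with no overlap in 5 regions was not taken. The frontal cortex difference rests on PM replicate 2 (7.90), without which the other PM array (8.48) lies above the AM array (8.40). The dorsal raphe difference rests on PM replicate 1 (8.65), since the other PM array (9.35) lies between the AM arrays (9.15 and 9.40). In the dorsal raphe, 2 of 2 Sham PM arrays and 0 of 2 Sham AM arrays were deposited at the common scale, so that scale and time cannot be told apart there. A Sham PM mean below the Sham AM mean in all 7 regions was shared by 655 probe sets, 2.11% of those tested.

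All grouped arrays of the septum, the amygdala and the frontal cortex were deposited at 1 scale, so Fabp7 could be read there without normalization. Deposited intensities of Fabp7 in the septum were 2526 and 2222 in Sham AM, 1232 and 1381 in Sham PM, 1883 and 1983 in ADX AM, and 1772 and 2056 in ADX PM. In the amygdala they were 1018 and 963 in Sham AM, 706 and 538 in Sham PM, 964 and 1017 in ADX AM, and 1079 and 1110 in ADX PM. Sham PM was the lowest of these 4 groups in both regions, with no overlap. In the frontal cortex they were 411 on the 1 Sham AM array, 432 and 283 in Sham PM, 598 on the 1 ADX AM array, and 858 and 770 in ADX PM. There Sham PM overlapped Sham AM, and both Sham PM arrays lay below both ADX PM arrays.

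After ADX the time of day difference in Fabp7 was small or went the other way. The ADX arrays of the septum were 10.68 and 10.76 at AM and 10.59 and 10.89 at PM, a difference of 0.02 (SE 0.20). Those of the amygdala were 9.68 and 9.73 at AM and 9.80 and 9.82 at PM, a difference of 0.11 (SE 0.12). Those of the hypothalamus were 9.9998 and 10.24 at AM and 9.89 and 10.08 at PM, a difference of -0.14 (SE 0.18). In these forebrain regions the AM and PM values of ADX were within 1 SE of each other, whether or not the arrays overlapped.

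The locus coeruleus had Fabp7 at 10.15 and 10.08 in ADX AM and at 10.24 and 9.86 in ADX PM, a difference of -0.06 (SE 0.14). The hippocampus had 10.53 and 10.37 at AM and 10.65 and 10.69 at PM, a difference of 0.22 (SE 0.07). The dorsal raphe had 9.47 and 9.33 at AM and 9.96 and 9.78 at PM, a difference of 0.47 (SE 0.22). The frontal cortex had 8.95 on its 1 AM array and 9.50 and 9.31 at PM, a difference of 0.46 (SE 0.28). The amygdala, hippocampus, dorsal raphe and frontal cortex thus had all ADX PM arrays above all ADX AM arrays, and the other 3 regions overlapped. The share of all probe sets with this count was not taken, and in the frontal cortex the order rests on 1 AM array.

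**Figure D2:**
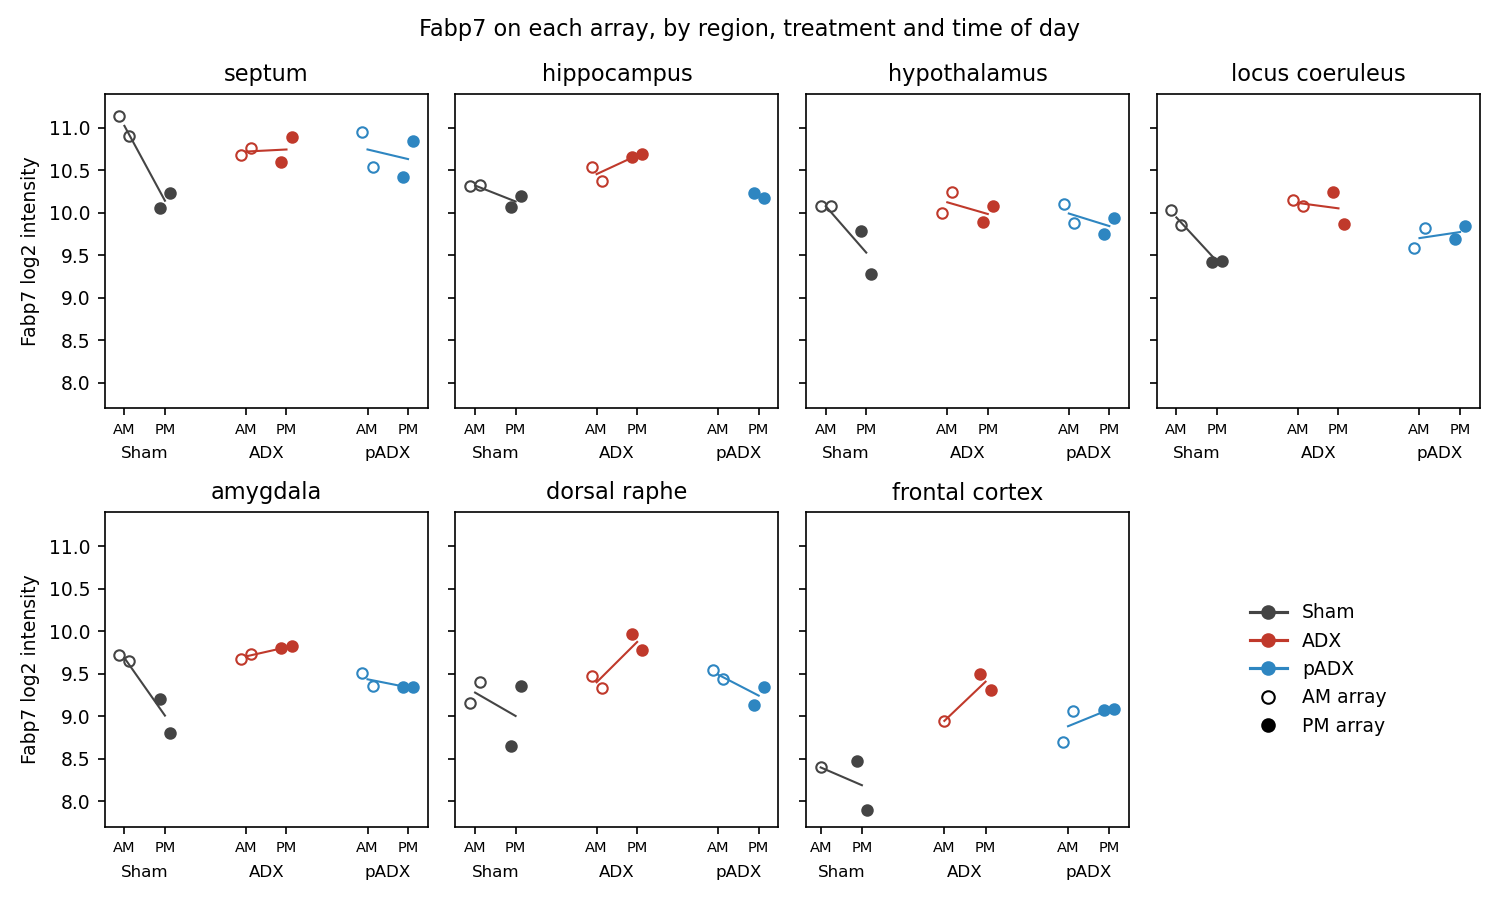
Fabp7 on each array (y axis, log2 intensity, same scale in every panel) by treatment and time of day (x axis), 1 panel per region in order of mean level; open points are AM arrays, filled points PM arrays, and lines join group means. The Sham PM points lie below both ADX PM points in all 7 panels, and no pADX AM array exists for the hippocampus panel.

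Fabp7 was higher in ADX than in Sham at PM, and over the mean of 5 regions not at AM. Over the 12 units ADX minus Sham was 0.01 (SE 0.07) at AM and 0.67 (SE 0.07) at PM, a 1.59-fold higher level. The Sham PM units at 9.42 and 9.42 enter both this difference and the daily difference in Sham, so the 2 values are not independent of each other. The share of all probe sets called by limma was 0.0966% for ADX minus Sham at AM and 0.0612% at PM, again given as background only.

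ADX minus Sham at PM for Fabp7 was 1.22 (SE 0.23) in frontal cortex, a 2.32-fold difference and the largest of the 7. It was 0.87 (SE 0.22) in dorsal raphe, 0.80 (SE 0.12) in amygdala and 0.62 (SE 0.14) in locus coeruleus. It was 0.60 (SE 0.20) in septum, 0.54 (SE 0.07) in hippocampus and 0.45 (SE 0.18) in hypothalamus. In 7 of 7 regions both ADX PM arrays were above both Sham PM arrays, a pattern held by 12 of 31042 probe sets (0.0387%). In dorsal raphe and locus coeruleus, 2 of 2 Sham PM arrays and 0 of 2 ADX PM arrays were deposited at the common scale, so scale and treatment cannot be told apart there. Deposited intensities of Fabp7 at PM overlapped in both, with 476 and 763 in Sham against 688 and 602 in ADX in dorsal raphe, and 826 and 828 against 887 and 657 in locus coeruleus.

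At AM the same difference in Fabp7 was positive in 6 of 7 regions and negative in 1, and the share of all probe sets with this count was not taken. It was -0.30 (SE 0.20) in septum, where both ADX arrays lay below both Sham arrays, and 0.55 (SE 0.33) in frontal cortex with 1 array per group. Both ADX arrays lay above both Sham arrays in hippocampus, by 0.13 (SE 0.07), and in locus coeruleus, by 0.17 (SE 0.14). In locus coeruleus, 2 of 2 Sham AM and 0 of 2 ADX AM arrays were at the common scale. The arrays overlapped in amygdala (0.02), hypothalamus (0.05) and dorsal raphe (0.12). Differences between regions in these values were not tested.

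**Figure D3:**
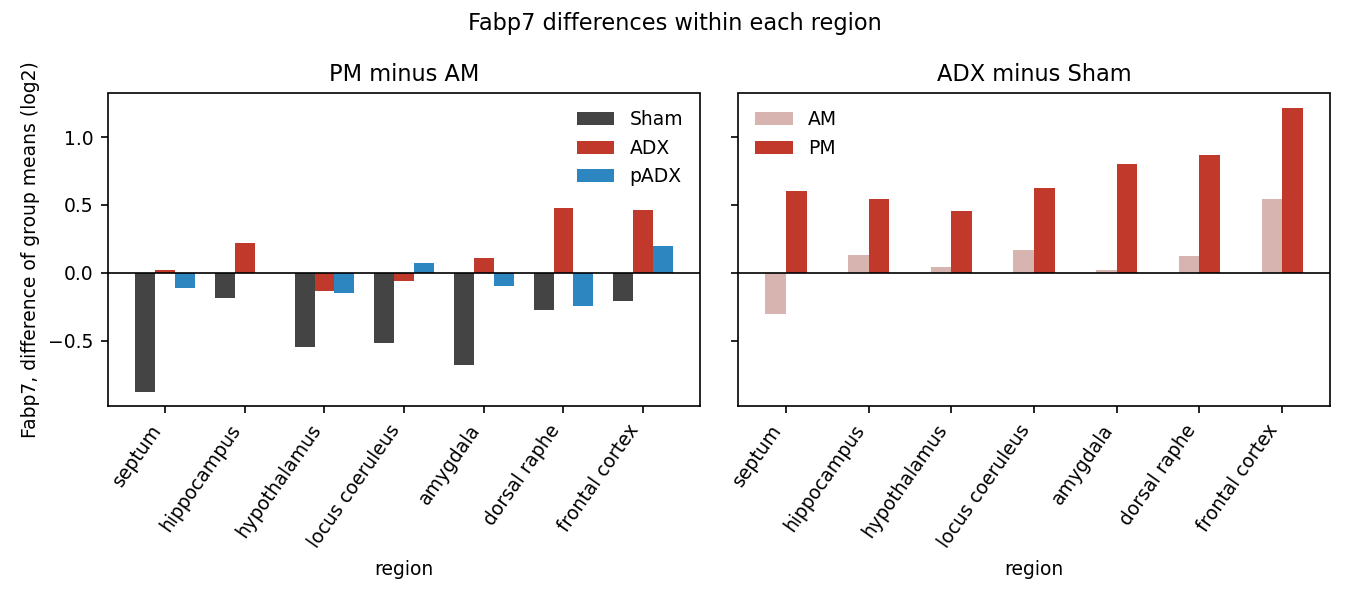
Differences of group means of Fabp7 within each region (y axis, log2; regions on the x axis in order of mean level): PM minus AM in Sham, ADX and pADX on the left, and ADX minus Sham at AM and at PM on the right. All 7 Sham bars on the left are below 0, and all 7 PM bars on the right are above 0, from 0.45 to 1.22; the bars carry no error, and the SEs are in the text.

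In pADX, Fabp7 at PM lay above Sham PM in the mean of 7 of 7 regions, by 0.34 (SE 0.07) over the units. The difference was 0.89 (SE 0.23) in frontal cortex and 0.49 (SE 0.20) in septum. It ranged from 0.24 to 0.34 in hypothalamus, amygdala, dorsal raphe and locus coeruleus. It was 0.07 (SE 0.07) in hippocampus, where the pADX time label is in doubt. The arrays overlapped in hypothalamus, hippocampus and dorsal raphe and did not in the other 4 of the 7 regions. The share of all probe sets with such means or such separation was not taken. In dorsal raphe, 2 of 2 Sham PM and 0 of 2 pADX PM arrays were deposited at the common scale, so scale and treatment cannot be told apart there. Deposited intensities of Fabp7 there had the opposite order, with 476 and 763 in Sham PM against 462 and 450 in pADX PM. At AM, pADX minus Sham over the units was -0.13 (SE 0.07).

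Per array, Fabp7 in pADX was 10.94 and 10.54 at AM and 10.42 and 10.84 at PM in septum. It was 10.10 and 9.88 at AM and 9.75 and 9.94 at PM in hypothalamus. In the amygdala it was 9.51 and 9.35 at AM and 9.34 and 9.34 at PM. In the septum the replicates of pADX differed by more than its times did. The dorsal raphe had 9.54 and 9.44 at AM and 9.14 and 9.35 at PM, the locus coeruleus 9.58 and 9.82 at AM and 9.70 and 9.85 at PM, and the frontal cortex 8.70 and 9.07 at AM and 9.07 and 9.09 at PM. PM minus AM in pADX ran from -0.25 in dorsal raphe to 0.20 in frontal cortex over the 6 regions with both times.

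The comparison of pADX with Sham over both times, which did not enter the choice of genes, passed for none of the 3. Its Sham units also entered the ADX differences used in that choice. With time of day in the model, Fabp7 differed by 0.11 (SE 0.12, limma adjusted p = 0.902), with a mean of 9.82 ± 0.11 (SD, n = 4) in pADX and 9.71 ± 0.33 (SD, n = 4) in Sham. The wide Sham spread holds the AM and PM units together. The model fits 1 treatment difference for both times, while pADX minus Sham of Fabp7 was -0.13 at AM and 0.34 at PM. Differences of opposite sign partly cancel in such a model and widen its SE. The result therefore does not speak for either time alone. Fabp3 differed by 0.14 (SE 0.07, limma adjusted p = 0.711) and Fabp5 by 0.05 (SE 0.06, limma adjusted p = 0.901). The 95% intervals were -0.17 to 0.38 for Fabp7, -0.03 to 0.31 for Fabp3 and -0.08 to 0.17 for Fabp5. Differences over both times of up to those sizes may be present. Among all probe sets limma called 2, or 0.00644%, and 2391 had an unadjusted p under 0.05.

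Fabp3 and Fabp5 were measured on the same arrays and did not share the pattern of Fabp7. Fabp3 units were 7.94 and 8.05 in Sham AM, 7.81 and 8.16 in Sham PM, 8.14 and 7.98 in ADX AM, and 8.09 and 8.02 in ADX PM. Its pADX units were 8.05 and 8.06 at AM and 8.19 and 8.22 at PM. The Sham PM units of Fabp3 spread over nearly the whole range of the 12 units, and the pADX PM units were the 2 highest.

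PM minus AM for Fabp3 was -0.01 (SE 0.11) in Sham, -0.00 (SE 0.11) in ADX and 0.16 (SE 0.11) in pADX, and ADX minus Sham was 0.07 (SE 0.11) at AM and 0.07 (SE 0.11) at PM. The signs of the values that use Sham PM rest on its 2 units. Without Sham PM replicate 1, PM minus AM in Sham was 0.17 and ADX minus Sham at PM -0.10, and without Sham PM replicate 2 they were -0.18 and 0.24. Both ADX PM arrays were above both Sham PM arrays in 0 of 7 regions, and the Sham PM mean was below the Sham AM mean in 5. Within regions, PM minus AM of Fabp3 in Sham ran from -0.33 in frontal cortex to 0.19. In the amygdala it was -0.25 (SE 0.14) in Sham and 0.40 (SE 0.14) in pADX, where the pADX arrays were 8.43 and 8.25 at AM and 8.71 and 8.76 at PM.

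Fabp5 units were 9.96 and 10.06 in Sham AM, 10.08 and 10.05 in Sham PM, 10.03 and 10.21 in ADX AM, and 10.17 and 10.03 in ADX PM. Its pADX units were 10.03 and 10.02 at AM and 10.07 and 10.22 at PM. The groups overlapped for the most part, and all 12 units lay between 9.96 and 10.22. PM minus AM was 0.06 (SE 0.08) in Sham, -0.02 (SE 0.08) in ADX and 0.12 (SE 0.08) in pADX, and ADX minus Sham was 0.12 (SE 0.08) at AM and 0.03 (SE 0.08) at PM.

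Both ADX PM arrays of Fabp5 were above both Sham PM arrays in 0 of 7 regions and below both in 1, the amygdala, with 9.70 and 9.58 in ADX against 9.76 and 9.73 in Sham. At AM the ADX mean of Fabp5 was above the Sham mean in 7 of 7 regions, by 0.07 to 0.24. How many of all probe sets share this order was not counted. In the frontal cortex each group had 1 array, and of the other 6 regions the arrays did not overlap in 1, the locus coeruleus. Over the units, the 0.12 became 0.21 without ADX AM replicate 1, 0.03 without ADX AM replicate 2 and -0.12 on the values as deposited. In the locus coeruleus, where the Sham AM but not the ADX AM arrays were at the common scale, Fabp5 was 10.44 and 10.36 in Sham AM and 10.60 and 10.67 in ADX AM, a difference of 0.24 (SE 0.08). The RefSeq gene table lists 2 Fabp5 pseudogenes, and whether their transcripts reach the Fabp5 probe set was not tested.

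The level of each of the 3 genes differed between regions, as did 65.3% of all probe sets in the same limma F test. The test used 80 arrays with treatment, time and replicate as a block. Fabp7 had the widest range of fitted means, 1.79, with a limma adjusted p of 1.85e-27, and 19 of its 21 pairs of regions passed. Fabp3 had a range of 1.29 (limma adjusted p = 8.89e-26) and Fabp5 of 0.94 (limma adjusted p = 1.03e-19), each with 17 of 21 pairs passed. Over all probe sets 34.1% of pairs passed. The regions are pieces of tissue, so fewer cells of a type and less messenger RNA per cell cannot be told apart. The scale of deposit also went with region. All grouped arrays of septum, amygdala and frontal cortex were at the common scale, and none of hypothalamus or hippocampus. For pairs between these sets of regions, region and scale cannot be told apart. Dorsal raphe and locus coeruleus held arrays of both kinds.

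Fabp7 was highest in septum, at a mean of 10.67 ± 0.32 (SD, n = 12; lowest 10.05, median 10.72, highest 11.14), and in hippocampus, at 10.36 ± 0.21 (SD, n = 10). Hypothalamus (9.92 ± 0.25) and locus coeruleus (9.83 ± 0.27) followed, then amygdala (9.50 ± 0.30) and dorsal raphe (9.38 ± 0.33), each with n = 12. Frontal cortex was lowest, at 8.85 ± 0.48 (SD, n = 10; lowest 7.90, median 9.01, highest 9.50). Septum passed against hippocampus by 0.31 (SE 0.09, limma adjusted p = 0.00508) and dorsal raphe against frontal cortex by 0.51 (SE 0.09, limma adjusted p = 4.36e-06). Neighbours that did not pass were hypothalamus and locus coeruleus (0.09, SE 0.09, limma adjusted p = 0.506) and amygdala and dorsal raphe (0.12, SE 0.09, limma adjusted p = 0.344).

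Fabp3 had another order, with frontal cortex highest at 9.02 ± 0.16 (SD, n = 10) and dorsal raphe lowest at 7.73 ± 0.20 (SD, n = 12). Amygdala (8.46 ± 0.19), septum (8.20 ± 0.12), locus coeruleus (8.01 ± 0.23), hypothalamus (7.90 ± 0.14) and hippocampus (7.82 ± 0.27) lay between. Frontal cortex exceeded amygdala by 0.57 (SE 0.07, limma adjusted p = 7.6e-10), and all 10 frontal cortex arrays were above the highest amygdala array, at 8.76. The steps from locus coeruleus down to dorsal raphe did not pass, with limma adjusted p-values of 0.235, 0.544 and 0.358.

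Fabp5 was highest in locus coeruleus, at 10.52 ± 0.11 (SD, n = 12), above hypothalamus by 0.40 (SE 0.06, limma adjusted p = 2.7e-07). Its lowest locus coeruleus array, 10.36, was above every array of each other region except the dorsal raphe, whose highest was 10.42. Hypothalamus (10.12 ± 0.13), dorsal raphe (10.10 ± 0.18), septum (9.94 ± 0.13), hippocampus (9.88 ± 0.11), amygdala (9.71 ± 0.20) and frontal cortex (9.60 ± 0.26) followed. Of these later steps, dorsal raphe over septum passed (0.16, SE 0.06, limma adjusted p = 0.0415), and hippocampus over amygdala narrowly did not (0.17, SE 0.07, limma adjusted p = 0.0502).

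**Figure D4:**
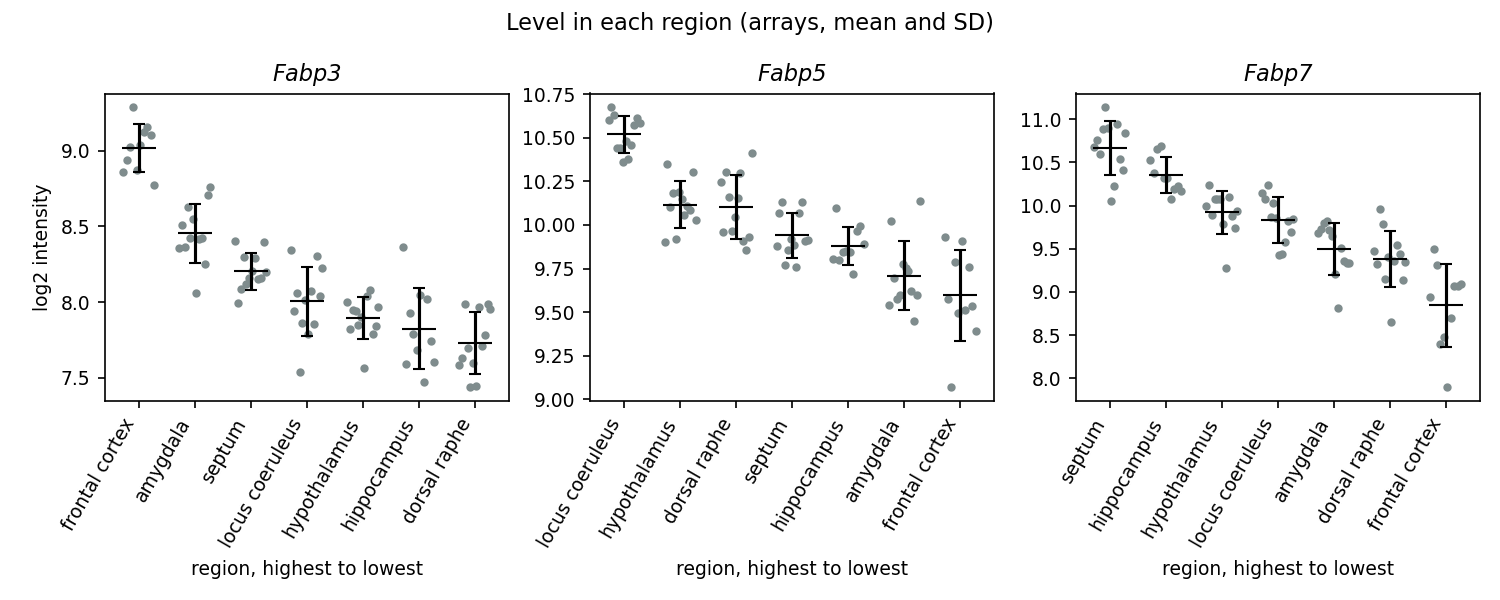
Level of Fabp3, Fabp5 and Fabp7 (y axis, log2 intensity; scales differ between panels) in each of 7 regions (x axis, from highest to lowest mean for that gene); grey points are the 10 or 12 arrays of a region, and black bars are the mean and SD. Frontal cortex is the highest region for Fabp3, at 9.02, and the lowest for Fabp5 and Fabp7, at 9.60 and 8.85.

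Across the 7 region means the correlation was -0.67 between Fabp3 and Fabp5, -0.55 between Fabp3 and Fabp7 and 0.31 between Fabp5 and Fabp7. Over the 80 arrays with region means subtracted it was 0.12, 0.12 and -0.08. The arrays share region, treatment, time and normalization, and the values are a description only.

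Close relatives of the 3 genes were mostly at the floor. Of 12 listed intracellular lipid binding proteins 11 were measured, and 5 (Fabp2, Fabp4, Fabp9, Pmp2 and Rbp2) lay at the floor on all 80 arrays. Fabp1, Fabp6, Fabp12 and Rbp7 were at the floor on 78 or 79. The retinoic acid binding proteins Crabp1, at a mean of 5.67, and Crabp2, at 5.63, were the only relatives above the floor on nearly all arrays. Their PM minus AM in Sham was 0.06 (SE 0.14) for Crabp1 and -0.06 (SE 0.17) for Crabp2.

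Genes that act before and after the fatty acid binding proteins were listed as uptake and activation (15 of 16 measured), lipid-sensing nuclear receptors (7 of 7), oxidation (19 of 22), synthesis and desaturation (14 of 16) and activators of Fabp7 in radial glia (12 of 13). With the 11 relatives these lists held 78 measured genes, and limma called 0 of them in any of 6 comparisons. At an unadjusted p under 0.05 there were 7 of the 78 in PM minus AM in Sham, 13 in ADX and 3 in pADX, beside 9.3%, 10.5% and 6.29% of all probe sets. There were 12 for ADX minus Sham at AM, 14 at PM and 6 for pADX against Sham, beside 7.99%, 8.49% and 7.7% of all probe sets. List medians for PM minus AM in Sham ran from -0.09 for synthesis and desaturation to 0, and for ADX minus Sham at PM from -0.06 for uptake and activation to 0.02 for synthesis, beside 0 over all probe sets.

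Some genes of fatty acid handling had larger differences that did not pass. Angptl4, a secreted inhibitor of lipoprotein lipase, was -0.80 (SE 0.12, limma adjusted p = 0.111) in ADX minus Sham at PM. Mfsd2a, the transporter of docosahexaenoic acid at the blood-brain barrier, was -0.57 (SE 0.12, limma adjusted p = 0.232). Acsbg1, an acyl-CoA synthetase of glia, was -0.23 (SE 0.05, limma adjusted p = 0.217). In the same comparison Scd, a stearoyl-CoA desaturase, was 0.38 (SE 0.13, limma adjusted p = 0.466). Slc27a5, a fatty acid transport protein, was 0.35 (SE 0.09, limma adjusted p = 0.377) and lay at the floor on 33 arrays. These genes were named after their values were seen, and they lie on both sides of 0. Ppara was at the floor on all 80 arrays. Notch1 and Rbpj, through which Notch signalling drives Fabp7 in radial glia, were 0.03 (SE 0.07) and -0.07 (SE 0.04) in PM minus AM in Sham.

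Clock genes, listed because Fabp7 is known to cycle in mouse brain, were measured for 18 of 19. Dbp, a transcription factor driven directly by the clock, rose from AM to PM in Sham by 0.33 (SE 0.03, limma adjusted p = 0.0392) and was higher in ADX than in Sham at AM by 0.38 (SE 0.03, limma adjusted p = 0.0256). It was the 1 clock gene called in each of these comparisons, and none was called in the other 4, while 9 of 18 had an unadjusted p under 0.05 in PM minus AM in Sham, beside 9.3% of all probe sets. Per2, a repressor in the clock loop, was 0.55 (SE 0.06, limma adjusted p = 0.0551) in Sham. Bmal1, its activator, was -0.30 (SE 0.06, limma adjusted p = 0.225), and Nr1d1, which encodes REV-ERB alpha, was -0.22 (SE 0.06, limma adjusted p = 0.391). In ADX minus Sham at PM the clock genes ran from Per1, another repressor of the loop, at -0.83 (SE 0.13, limma adjusted p = 0.127; at the floor on 24 arrays) to Nr1d1 at 0.44 (SE 0.06, limma adjusted p = 0.107).

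**Figure D5:**
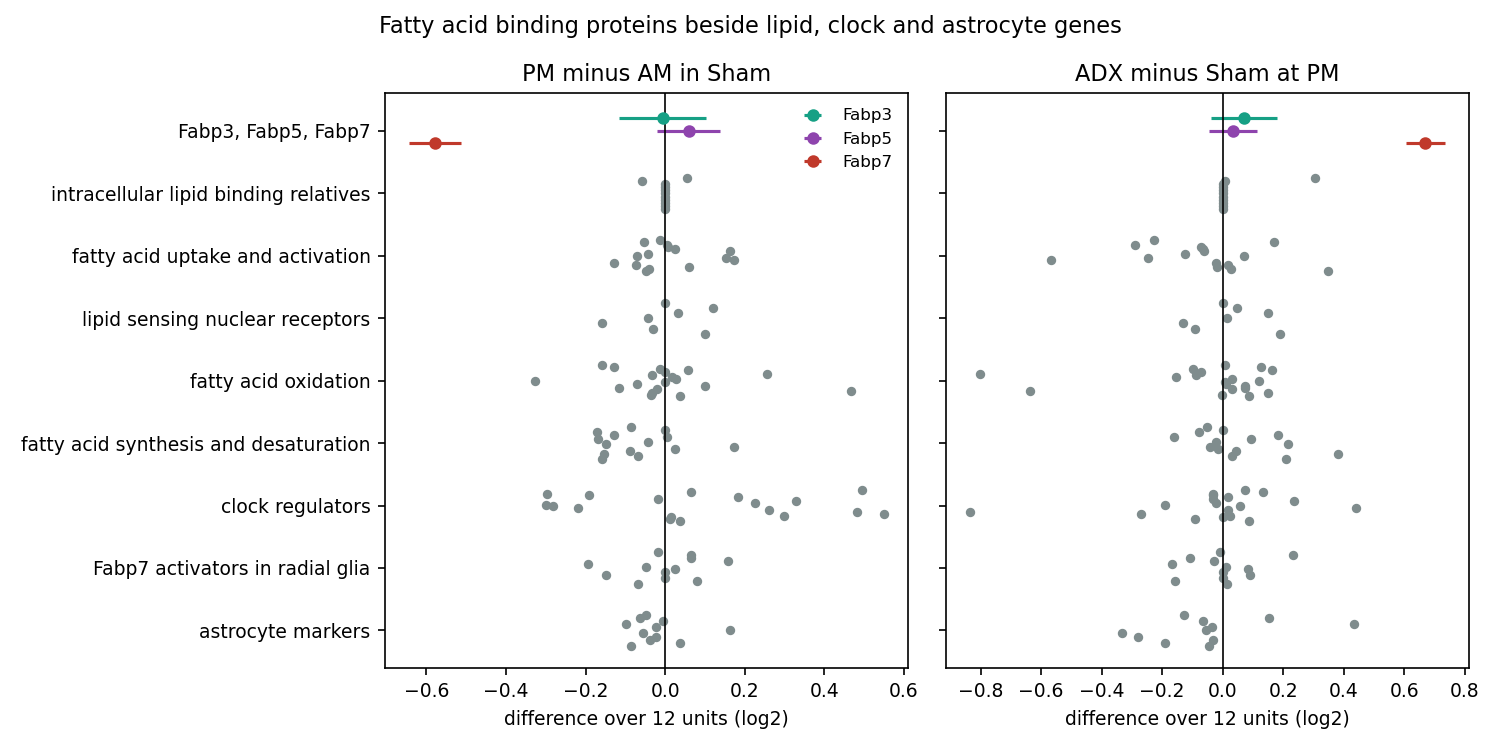
Differences over the 12 units (x axis, log2) for PM minus AM in Sham on the left and ADX minus Sham at PM on the right; the top row shows Fabp3, Fabp5 and Fabp7 with bars of 1 SE, and each grey point below is 1 measured gene of the list named on the y axis, with genes at the floor at 0. Fabp7, at -0.58 on the left and 0.67 on the right, lies beyond every plotted grey point in its own direction. Fabp7 was selected on these same differences and the grey points were not, so its place among them is a description with no test. Choroid plexus markers, which are not plotted, reached -1.39 for PM minus AM in Sham and 1.11 for ADX minus Sham at PM, beyond Fabp7 in both.

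Astrocytes are the main adult source of Fabp7. Of 12 markers listed, 11 were measured, none at the floor on more than 1 array. Limma called 0 in PM minus AM in Sham, in ADX or in pADX and in ADX minus Sham at PM. At an unadjusted p under 0.05 there were 0, 3, 1 and 3, beside 9.3%, 10.5%, 6.29% and 8.49% of all probe sets. In ADX minus Sham at AM limma called 1, and 5 had an unadjusted p under 0.05, beside 7.99% of all probe sets. In that comparison 8 of the 11 were lower in ADX and 3 higher. Their summed intensity per unit was 22966 to 23178 in Sham AM, 21347 to 23699 in Sham PM, 20581 to 21102 in ADX AM and 21499 to 21534 in ADX PM. In pADX it was 22859 to 23595 at AM and 22225 to 23060 at PM. Relative to the mean of the 11 markers in the same unit, Fabp7 differed by -0.56 from AM to PM in Sham, 0.03 in ADX and -0.08 in pADX, and by 0.72 in ADX minus Sham at PM. Glul, glutamine synthetase, fell in ADX at AM by 0.52 (SE 0.05, limma adjusted p = 0.0378). The part of astrocyte content in the Fabp7 differences was not tested.

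Markers of radial glia and tanycytes, which also make Fabp7, were measured for 6 of 6 and none was called by limma in the 6 comparisons. Of the 6, 5 were lower at PM in Sham (median -0.13, range -0.20 to 0.14) and 4 were higher in ADX at PM (median 0.12, range -0.18 to 0.51). At an unadjusted p under 0.05 in limma there were 2 of the 6 in the first comparison and 3 in the second. The shares of all probe sets were 9.3% and 8.49%. Sox2, a factor of progenitors and glia named after its values were seen, was -0.20 (SE 0.07, limma adjusted p = 0.443) from AM to PM in Sham. It was 0.29 (SE 0.07, limma adjusted p = 0.317) in ADX minus Sham at PM. Summed intensity of these markers was 1652 to 1692 in Sham AM, 1474 to 1637 in Sham PM, 1438 to 1591 in ADX AM and 1711 to 1713 in ADX PM. Rax, which defines tanycytes, lay at the floor on 67 of 80 arrays. The part of these cells in the Fabp7 differences was not tested.

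Other quantities that moved with the groups were the blood and choroid plexus markers and the array scale. Blood markers (3 of 5 measured) summed to 2777 to 3484 in Sham and to 743 to 1650 in ADX. Choroid plexus markers (5 of 6 measured, Kl at the floor on 70 arrays) summed to 1412 and 2055 in Sham AM and to 244 and 1479 in Sham PM. In ADX they summed to 1723 and 1790 at AM and to 1021 and 1958 at PM. Of the 5, 4 were lower at PM than at AM in Sham, and 4 were higher in ADX than in Sham at PM. In each comparison 1 went the other way, and limma called 0. Of the 5 arrays in a unit, 3 were at the common scale in Sham AM, 4 in Sham PM and 2 in ADX. The ratio of 3' to 5' beta-actin signal per unit was 3.41 to 3.89 in Sham AM, 3.18 to 3.55 in Sham PM and 3.03 to 3.11 in ADX PM. The part of these in the Fabp7 differences was not tested, beyond the values from the septum, amygdala and frontal cortex at 1 scale given above.

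The genes most like each of the 3 across arrays were found by Pearson correlation over 80 arrays with region means subtracted. For Fabp7 they were Ermn (0.63), Tfpi (0.61), Rap1a (0.61), Lims1 (0.59) and Srgn (0.58). Of these, Tfpi, a coagulation inhibitor, was -0.36 (SE 0.15) from AM to PM in Sham and 0.50 (SE 0.15) in ADX minus Sham at PM, and Srgn, a proteoglycan core protein, was -0.20 (SE 0.05) and 0.40 (SE 0.05). Rap1a was -0.03 (SE 0.06) and 0.14 (SE 0.06). The likeness draws on the same arrays as these differences, which are given without a test.

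For Fabp3 the nearest genes were Avpi1 (0.60), Lamtor2 (0.58), Ppih, Samm50 and Hsd17b10 (each 0.55), and for Fabp5 Zfpl1 (0.63), Nop10 and Elof1 (each 0.62), Phgdh and Tmem160 (each 0.60). By the 7 region means, Fabp7 was most like Tceal8 (0.99), LOC102548047 (0.98) and Rnf128 (0.97), Fabp3 like Znf865 (0.99), Usp4 and Ppp2cb (each 0.98), and Fabp5 like Rgs3 (0.99), Hibch and Ccdc17 (each 0.98). These values over 7 points are a description only.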

How the data were processed

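Each array was deposited as linear intensities, 1 for each probe set; the sources used here do not name the authors' software or scaling. Region was read from the region code in each title and from descriptions, with which the source name disagreed for several regions. Titles of septum, hypothalamus, dorsal raphe and locus coeruleus arrays open with the name of another tissue. Intensities were quantile normalized over 82 arrays, set to a floor of 16 and log2 transformed; 57 control probe sets were left out and 31042 tested without a filter, of which 20826 carried 1 gene symbol. The 5 regions with all 12 arrays were averaged into 12 units. Models were fitted with limma 3.58.1 (R 4.3.3; lmFit, then eBayes with trend): 6 means of treatment by time, treatment with time as additive terms, and the 7 regions with the 12 treatment, time and replicate combinations as a block; p-values were Benjamini-Hochberg adjusted over all probe sets, and for the 21 pairs of regions over pairs and probe sets together. Fold changes are the higher over the lower group. Scripts were tested on simulated data. For arrays, their number limits the precision. The 3 genes and all lists were chosen with earlier results of these data known. Named genes are the 3, listed genes past an adjusted p of 0.05, and the 5 genes (by arrays) and 3 genes (by region means) most correlated with each, among probe sets at or above the 40th percentile of mean level; further listed genes were named after their values were seen. Promoter sequence is from RefSeq (GRCr8), which held 2 of the 3 genes. Alternatives covered normalization, floor, filter, variance model, replicates, regions and the replicate block.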

Additional observations from a re-analysis of the deposited data

Results flagged for a closer look

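Dixon's test was run on 63 sets of 4 values, 54 of arrays (1 gene, region and treatment) and 9 of units (1 gene and treatment). An array stood far from the other 3 in 5 of the sets. Chance alone gives about 1 in 20 where all 4 values come from 1 distribution. Each set holds AM and PM values together, so this rate need not hold where the times differ. For Fabp7 these were the lowest frontal cortex pADX array (AM replicate 1, 8.70) and the highest amygdala pADX array (AM replicate 1, 9.51). For Fabp3 it was the lowest frontal cortex pADX array (PM replicate 2, 8.78). For Fabp5 they were the highest dorsal raphe pADX array (PM replicate 2, 10.42) and the highest hippocampus ADX array (AM replicate 2, 10.10).

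Of 57 pairs of treatments compared in 1 region or over the units, 6 had opposite orders of the times. In these, every PM value lay above the AM values in 1 treatment and below them in the other. The differences between treatments were not tested. How many such pairs other probe sets would give was not counted, and the genes were selected on PM minus AM differences. Over 5 regions, PM minus AM of Fabp7 was -0.58 in Sham and 0.081 in ADX. In the amygdala it was -0.68 in Sham, 0.11 in ADX and -0.095 in pADX, which gives 2 of the 6 pairs. In the dorsal raphe it was 0.47 in ADX and -0.25 in pADX. In the hippocampus it was -0.19 in Sham and 0.22 in ADX. For Fabp3 in the amygdala it was -0.25 in Sham and 0.40 in pADX.

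The 2 frontal cortex arrays without a treatment label entered no comparison. They read 8.71 and 9.04 for Fabp7, above the 3 Sham frontal cortex arrays, which ran from 7.90 to 8.48.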

How the results depend on the processing

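Fabp7 PM minus AM in Sham was negative in 26 of 26 alternative settings (-0.78 to -0.50) and ADX minus Sham at PM positive in 26 of 26 (0.33 to 0.72). Many of these settings could not move the 2 estimates, so the counts do not measure robustness. The floor, filter, variance model and replicate block returned the same values. So did leaving out a unit of a group outside the comparison. On the values as deposited, Fabp7 was 0.0099 for PM minus AM in ADX, -0.23 for ADX minus Sham at AM and 0.33 at PM, beside medians over all probe sets of -0.01, -0.16 and -0.24; less that median, ADX minus Sham was -0.07 at AM and 0.57 at PM. With the septum and amygdala alone, PM minus AM in Sham was -0.78 and ADX minus Sham at AM -0.14. Without the septum these were -0.50 and 0.089. Without the dorsal raphe, PM minus AM was -0.65 in Sham and -0.017 in ADX. Relative to the astrocyte markers, an alternative added after seeing the data, ADX minus Sham at AM was 0.13. Leaving out 1 unit at a time gave -0.60 to -0.56 for PM minus AM in Sham and 0.67 to 0.67 for ADX minus Sham at PM. For pADX, PM minus AM ran from -0.20 (without PM replicate 2) to -0.0079 (without PM replicate 1).

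For pADX against Sham, the values as deposited turned Fabp5 to -0.072 (limma adjusted p = 0.584) and Fabp7 to -0.012 (limma adjusted p = 1); Fabp3 was positive in 25 of 25 settings, and none of the 3 genes passed in any. The floor, filter, variance model and replicate block, and leaving out an ADX unit, could not move the estimates of the 3 genes. The count of probe sets called, 2, was 0 as deposited, at a floor of 32, at a floor of 4 and without the amygdala. It was 1 with dim probe sets left out, with the septum and amygdala alone and without the septum. Leaving out 1 unit gave 1 to 8, with 8 without Sham AM replicate 1. Counts called ranged over all settings from 4 to 210 for PM minus AM in Sham (24 as reported), 0 to 240 in ADX (9), 0 to 150 in pADX (3), 6 to 362 for ADX minus Sham at AM (30) and 10 to 10153 at PM (19); the last was 10115 lower and 38 higher on the values as deposited, against 13 lower and 6 higher as reported. The causes were not tested. Differences between regions passed for all 3 genes in each of 11 settings, with limma adjusted p-values up to 7.42e-06. The setting with another probe set of a gene could not be run, since each gene has 1.

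Each group holds both replicate numbers, so a block for the replicate number cannot change the estimates and can change only their SE. With this block, Fabp7 was -0.58 (SE 0.07) for PM minus AM in Sham and 0.67 (SE 0.07) for ADX minus Sham at PM. Counts called moved from 9 to 2 for PM minus AM in ADX and from 30 to 14 for ADX minus Sham at AM. Replicate differences had no common profile between groups: over 15 pairs of groups their correlation ran from -0.07 to 0.06. This cannot show whether equal replicate numbers shared an animal or a day, which the labels do not give.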

Other observations

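The 2 frontal cortex arrays without a treatment label read 9.06 and 9.01 for Fabp3, within the range of the grouped frontal cortex arrays (8.78 to 9.28), and 9.29 and 9.24 for Fabp5 (9.07 to 9.93). Meninges and fibroblast markers, which no comparison above used, were higher at PM than at AM in ADX for 6 of 6 measured genes, with a median of 0.12 and a range of 0.06 to 0.30, and for 2 of 6 in Sham (median -0.07); limma called none of them. Oligodendrocyte markers were lower at PM for 7 of 7 measured genes in both Sham (median -0.09) and ADX (median -0.14), and none was called.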
